A study of Daphnia magna with 22 samples.

Results

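Caloric restriction was examined in the IL clone of the water flea Daphnia magna by RNA sequencing of whole bodies, 1 female per library. The 6 libraries compared, of 22 in the series, came from 3 IL females under caloric restriction (CR, 100000 algal cells per mL and day) and 3 IL females on full diet (control, 400000 cells per mL), and they were chosen by the clone and diet letters of their titles and their library names. The libraries set beside them came from 3 IL females on full diet with daily 2 h baths of 2.5 mM beta-hydroxybutyrate (BHB, a ketone body) and 2 IL females with baths of 0.1 mM nicotinamide mononucleotide (NMN, a precursor of NAD+), and from CR and control females of the GB clone, 3 each. CR and control animals had baths of plain medium for the same time. GB originates from a permanent London lake and IL from a Jerusalem pond that is dry each summer. All were sampled at an age of 75 ± 2 days, without the eggs they had just laid. Each clone is 1 genotype, so differences among its females are not differences between genotypes.

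Reduced food lengthens life in many animals, and Daphnia, which feed by filtering algae and reproduce by cloning, allow the same genotype to be raised on different rations. In well studied animals low food acts in part through insulin and TOR signalling, which set growth, storage and reproduction against maintenance. The deposited table holds IDs only (protein accessions or gene-model numbers), with no names. Gene models are therefore given by ID or by rank, and no pathway or tissue marker could be followed. A gene model here is 1 line of that table, and its level is given as CPM, read counts relative to the library total after scaling for library composition, which is not corrected for transcript length.

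The 3 IL CR libraries held 11011394 to 11512346 counted reads and the 3 IL control libraries 12198335 to 14225214, so every CR library was shallower than every control library. All 3 CR libraries carry numbers above those of every other IL library (18, 21 and 22 in CR, 2, 11 and 12 in control, 6, 7 and 13 in BHB, 15 and 16 in NMN), so diet and library number cannot be told apart in these 6 libraries. The females of a group were not alike. Over 4965 tested gene models, CR replicate 1 correlated at r = 0.966 and 0.962 with the other CR libraries but at r = 0.977 with control replicate 3, whose own group gave 0.973 and 0.959; these values are across gene models of 1 clone and carry no test. The largest axis of variation within the IL groups held 45.1% of it, and 1 female of each group of 3 stood at its high end: CR replicate 1 at 0.49, BHB replicate 3 at 0.42 and control replicate 3 at 0.46, with the other 8 libraries between -0.33 and 0.06. The count of calls and the named gene models whose call or size depends on CR replicate 1 and control replicate 3 are given with and without both.

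**Figure D1:**
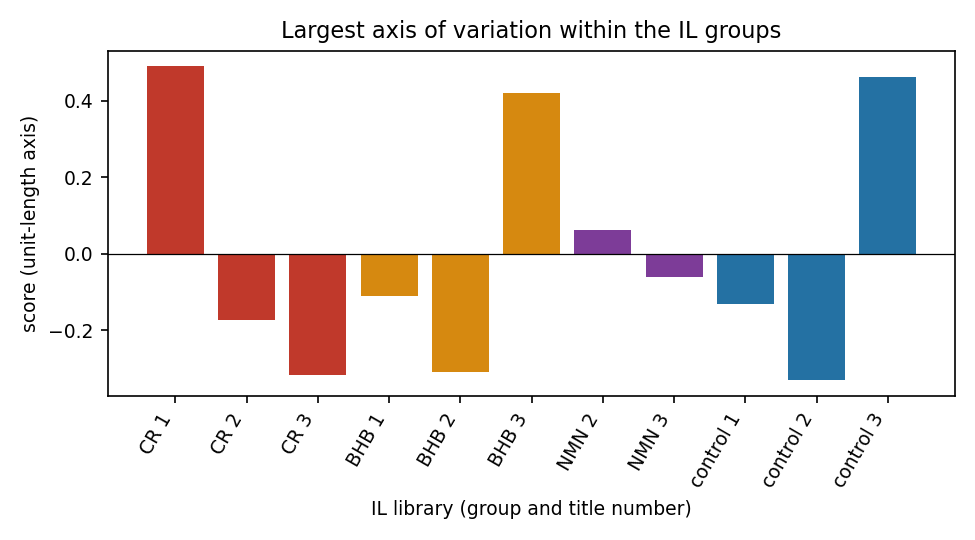
Score of each of the 11 IL libraries (bars, by group and title number) on the largest axis of variation within the IL groups, in units of an axis of length 1. CR replicate 1, BHB replicate 3 and control replicate 3 stand at 0.49, 0.42 and 0.46, and the other 8 libraries lie between -0.33 and 0.06.

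The comparison of CR with control asks which transcripts differ when IL animals live on a low ration. Of 4965 gene models, 61 passed an adjusted p of 0.05 in edgeR's quasi-likelihood test with Benjamini-Hochberg adjustment (1.23%), of which 42 were higher (0.846%) and 19 lower (0.383%) in CR. The 42 that rose had a median log2 fold change of 0.90, and 15 of them rose over 2-fold. The median was the same with the 2 that had no control reads set against a limit of 3 control counts. The 19 that fell had a median of -1.13, and 10 fell over 2-fold. The median over all 4965 was 0.00. In all 61 the 3 CR values lay wholly above or wholly below the 3 control values, as they did in 832 of all tested (16.8%: 8.62% above and 8.14% below), and since the same values chose the 61, nothing is read from this. The smallest adjusted p was 0.0173. The last gene model inside the threshold had 0.0495 and the first outside 0.0503, and 68 more lay between 0.05 and 0.1.

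The count of 61 rests on the spread of all 22 libraries of the series, GB included, and on single animals. The 11 IL libraries alone gave 0 (682 at an unadjusted p under 0.05, edgeR) and the 6 compared libraries alone also 0 (468). With library number as a linear term 4 were called, and DESeq2 called 191, with 59 of the 61 among them. Leaving out 1 library gave 14, 0 (467 at an unadjusted p under 0.05, edgeR) and 39 without control replicate 1, 2 and 3, and 4 and 14 without CR replicate 2 and 3. It gave 35 and 37 without GB CR replicate 1 and 2, 34 without either GB NMN library, and 38 and 36 without IL NMN replicate 2 and 3. Without CR replicate 1 and control replicate 3 together 48 were called, 28 of them among the 61, with 43 higher and 5 lower in CR.

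**Figure D2:**
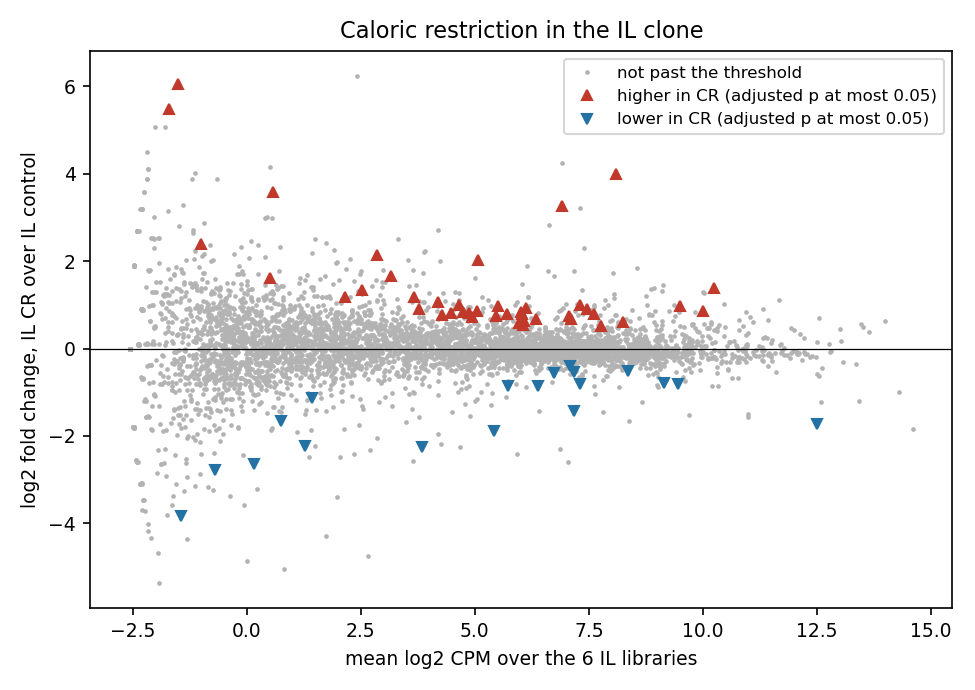
Log2 fold change of IL CR over IL control against mean log2 CPM over the 6 libraries, for 4965 gene models (points). Upward triangles mark the 42 that rose and downward triangles the 19 that fell past an adjusted p of 0.05; those with low levels needed larger changes to pass.

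The calls were spread over the whole range of levels. Of the 1366 gene models with a mean under 2 CPM in the 6 libraries 8 were called (0.586%), and these had a median change of 2.71 in size on the log2 scale. Between 10 and 100 CPM 26 of 1341 were called (1.94%), 22 of them higher in CR, with a median size of 0.85. From 1000 CPM upwards 3 of 182 were called (1.65%). The median standard error of a log2 fold change was 0.70 in the lowest band and 0.13 between 100 and 1000 CPM, so that smaller changes could be told from 0 in the better covered gene models. Together the 42 that rose took 0.932 ± 0.187% of all counts in CR and 0.380 ± 0.0172% in control, and the 19 that fell took 0.526 ± 0.0552% in CR and 1.36 ± 0.338% in control (SD, n = 3 each). Most of the counts of the 19 belonged to the gene model with the 7th largest fall, which averaged 3221 CPM in CR and 10629 CPM in control. The 42 and the 19 were chosen from these same values.

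Ranks are given among the 61 called gene models; some that did not pass had larger fitted changes. Of those called, with a mean log2 CPM over 1 and an ID on a single line, KZS05843 had the largest rise. It measured 397.8, 733 and 2764 CPM in the 3 CR females, against 74.2, 91.8 and 77.5 CPM in the 3 control females. The control females lay close together, while the highest CR female had several times the level of the lowest. The log2 fold change was 4.00 ± 0.784 (SE, edgeR adjusted p = 0.0299), and 2.80 without CR replicate 3 (adjusted p = 0.0844). The call was also lost without control replicate 1, 2 or 3 (adjusted p = 0.0842, 0.126 and 0.0737) and without CR replicate 2 (0.0616). KZS13733 came next among them, with 205, 576 and 426 CPM in CR against 37.6, 23.6 and 65.5 CPM in control, so that its lowest CR female was above its highest control female by over 3-fold. Its log2 fold change was 3.25 ± 0.713 (edgeR adjusted p = 0.0429). It was 4.04 (adjusted p = 0.0507) without CR replicate 1 and control replicate 3. Its call was lost without control replicate 1, 2 or 3 (0.118, 0.189 and 0.0644), CR replicate 2 or 3 (0.157 and 0.0900), IL NMN replicate 2 or 3 (0.0627 and 0.0615), IL BHB replicate 1 (0.0503), GB control replicate 2 (0.0507), GB CR replicate 1 (0.0593) or GB NMN replicate 1 or 3 (0.0601 and 0.0608).

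The other strong rises among the 42 are given by rank, without ID. The 2 largest fitted rises of the 42 were in gene models with no control read at all. The first had 2, 15 and 7 reads in the CR females, 8.81-fold above a limit of 3 counts over the control group. The second had 7, 1 and 8 reads, 5.87-fold above that limit. The 95% counting intervals of CR over control started at 6.63-fold and 4.25-fold, and they cover counting error only. Both gene models are too thinly read to put all 3 CR females in order. The 4th largest of the 42 measured 0.938, 9.44 and 6.59 CPM in CR against 0.505, 0.771 and 0.0832 CPM in control, a log2 fold change of 3.59 ± 0.695 (edgeR adjusted p = 0.0257), and was carried by CR replicates 2 and 3. The same 2 females were highest in the 7th, at 8.10, 18.5 and 20.4 CPM in CR against 4.13, 4.07 and 2.41 CPM in control (2.14 ± 0.453, edgeR adjusted p = 0.0336), and in the 9th, at 7.25, 25.2 and 17.8 CPM in CR against 6.15, 4.07 and 5.57 CPM in control (1.67 ± 0.37, edgeR adjusted p = 0.0394). CR replicate 1 was therefore nearest to control in these 3. The 10th was even, with 2.30, 2.17 and 2.11 CPM in CR against 0.926, 0.561 and 0.665 CPM in control (1.60 ± 0.356, edgeR adjusted p = 0.0394). The rising gene model with the highest CPM ranked 11th, at 1339, 2677 and 2003 CPM in CR against 682, 813 and 796 CPM in control (1.39 ± 0.287, edgeR adjusted p = 0.0299).

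Of the called gene models under the same conditions, KZS12501 had the largest fall. It measured 1.02, 0.606 and 1.58 CPM in the CR females, from 12, 7 and 18 reads, against 3.70, 6.66 and 4.74 CPM in the control females, from 44, 95 and 57 reads. The groups did not overlap, which was a condition of naming, and the log2 fold change was -2.23 ± 0.415 (SE, edgeR adjusted p = 0.0222). The call was lost without control replicate 2 (adjusted p = 0.104), without CR replicate 2 (0.0990) and without CR replicate 1 and control replicate 3 together (0.0591). KZS14794 had 31.8, 13.3 and 24.0 CPM in CR against 74.0, 65.1 and 117 CPM in control, with a log2 fold change of -1.89 ± 0.417 (edgeR adjusted p = 0.0405). All 3 CR females were below 65.1 CPM, the lowest control value. Its call was lost without control replicate 1, 2 or 3 (0.0674, 0.104 and 0.0957), CR replicate 2 or 3 (0.167 and 0.105), GB CR replicate 1 or 2 (0.0568 and 0.0509), GB NMN replicate 1 or 3 (0.0584 and 0.0589), IL NMN replicate 2 or 3 (0.0606 and 0.0552), IL BHB replicate 2 (0.0571) or GB BHB replicate 3 (0.0514), and without CR replicate 1 and control replicate 3 together (0.0852). In the 11 IL libraries alone, none of the 4 gene models named here passed (adjusted p = 0.0767 for KZS05843, 0.0680 for KZS13733, 0.0647 for KZS12501 and 0.0713 for KZS14794). None of them passed with library number as a linear term either (adjusted p = 0.634, 0.530, 0.290 and 0.214 in the same order), where the log2 fold change was 1.57 for KZS05843 and 2.08 for KZS13733.

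The falling gene model with the highest CPM ranked 7th. It measured 2916, 2765 and 3984 CPM in the 3 CR females, against 9390, 13991 and 8507 CPM in the 3 control females, a log2 fold change of -1.72 ± 0.322 (edgeR adjusted p = 0.0222). All 3 CR females lay far below the lowest control female. The 9th largest of the 19 falls had 108, 73.7 and 88.8 CPM in CR against 198, 308 and 217 CPM in control (-1.42 ± 0.318, edgeR adjusted p = 0.0429). The 3 largest fitted falls of the 19 were all below 3 CPM in every female of either group. The 1st had 1 read in CR and 21 in control, 19.1 times fewer at equal depth with a 95% counting interval of 3.07 to 789, and the 2nd had 5 and 40 reads (7.26 times fewer, 2.87 to 23.6). These intervals cover counting error only.

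**Figure D3:**
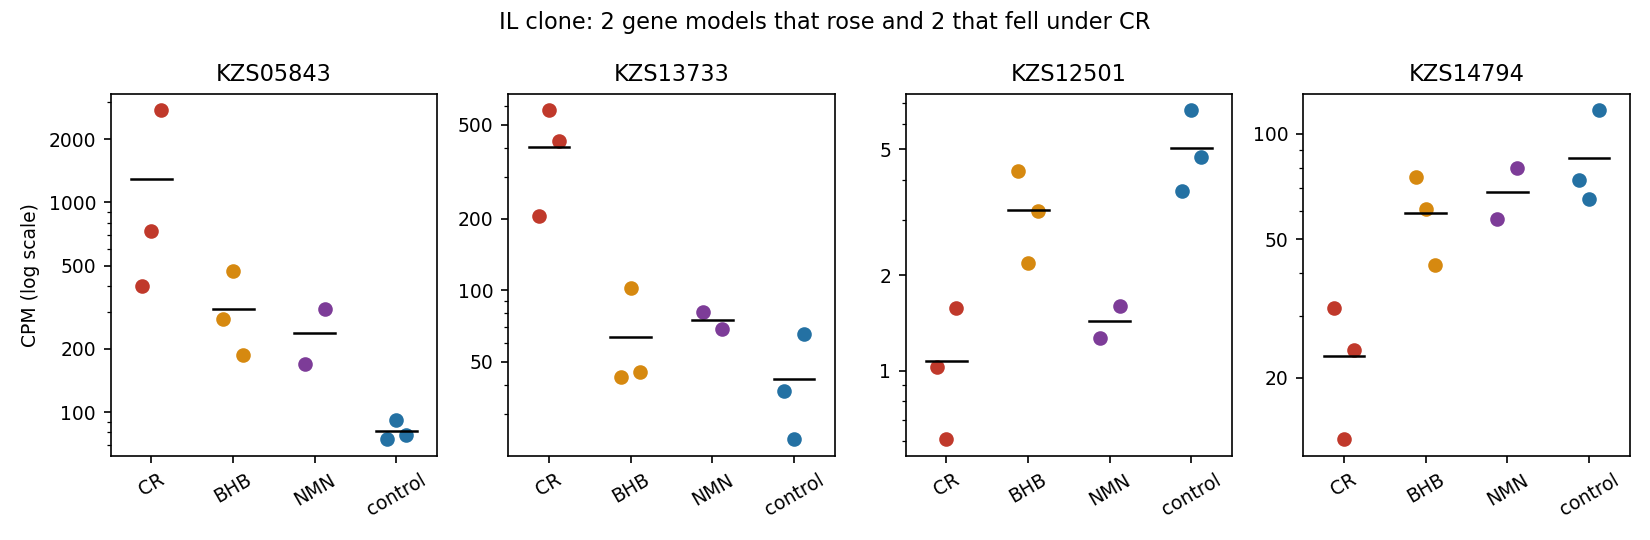
CPM of the 2 named gene models that rose and the 2 that fell, in each IL female (points, log scale, with the group mean as a line) under CR, BHB, NMN and control. The CR and control values do not overlap in any of the 4, which was a condition of naming. The NMN values of KZS12501, 1.27 and 1.60 CPM, lie at the CR level.

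Some of the 61 share an ID or a neighbourhood. IDs found on more than 1 line of the table made up 11.9% of the 42 that rose and 31.6% of the 19 that fell, beside 20.9% of all tested, and reads can be divided between such lines. For 1 ID on 4 lines the lines went opposite ways. One rose, with 27.9, 106 and 84.1 CPM in CR against 14.398, 16.4 and 23.0 CPM in control (log2 fold change 2.02 ± 0.408, edgeR adjusted p = 0.0299). Another fell, with 9.04, 3.03 and 9.13 CPM in CR against 23.2, 24.0 and 54.7 CPM in control (-2.26 ± 0.51, edgeR adjusted p = 0.0437). The line with most reads had 826 ± 369 CPM in CR and 314 ± 81.8 CPM in control (SD, n = 3 each; 1.39 ± 0.35 SE) and did not pass (edgeR adjusted p = 0.0623). Summed over its lines the ID measured 457.5, 1249 and 1011 CPM in CR against 303, 309 and 487 CPM in control, and the groups overlapped. Both lines of another ID fell, at 408, 401 and 481 CPM in CR against 762, 728 and 732 CPM in control for the line with more reads. Of the 2 rising gene models with no protein accession, both carry consecutive numbers on the same contig in their IDs, with log2 fold changes of 0.74 ± 0.171 and 0.90 ± 0.199.

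The strongest CR gene models were followed in the IL females given BHB or NMN on full diet, whose comparisons use the same 3 control females. KZS05843 measured 276.8, 473 and 187 CPM in BHB and 170 and 309 CPM in NMN. All 5 values were above every control female, and 1 was above the lowest CR female. KZS13733 had 43.2, 102 and 45.3 CPM in BHB and 80.7 and 69.0 CPM in NMN, all below every CR female. KZS14794 had 75.1, 60.9 and 42.1 CPM in BHB and 57.0 and 79.7 CPM in NMN, above every CR female. KZS12501 differed from this, with 4.26, 2.18 and 3.20 CPM in BHB but 1.27 and 1.60 CPM in NMN, of which the first is inside the CR range and the second just above its top of 1.58 CPM. None of these differences from control passed (edgeR adjusted p of 1.00 for all 4 in BHB, and 0.946, 0.982, 0.501 and 0.983 in NMN for KZS05843, KZS13733, KZS12501 and KZS14794). No gene model at all passed in IL BHB against control (0 of 4965 in edgeR, 193 at an unadjusted p under 0.05) or in IL NMN against control (0, 248).

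Over the 42 gene models that rose in CR, the median log2 difference from the IL control mean was 0.86, 1.03 and 0.91 in the 3 CR females, 0.46, 0.35 and 0.27 in the 3 BHB females, 0.24 and 0.41 in the 2 NMN females, and 0.06, -0.13 and 0.05 in the 3 control females. Over the 19 that fell it was -1.14, -1.04 and -1.15 in CR, -0.16, -0.27 and -0.32 in BHB, -0.31 and -0.20 in NMN, and -0.11, -0.02 and -0.02 in control. The BHB and NMN females thus lay between CR and control, nearer to control, while over all tested gene models each library's median was between -0.01 and 0.01. The 61 were chosen for control values that differ from CR, which moves any other group measured against the same control females in that direction. Of the 42, the gene model with the largest fitted rise, with 0 control reads, had 17 reads in BHB and 17 in NMN, and the second had 3 and 2.

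**Figure D4:**
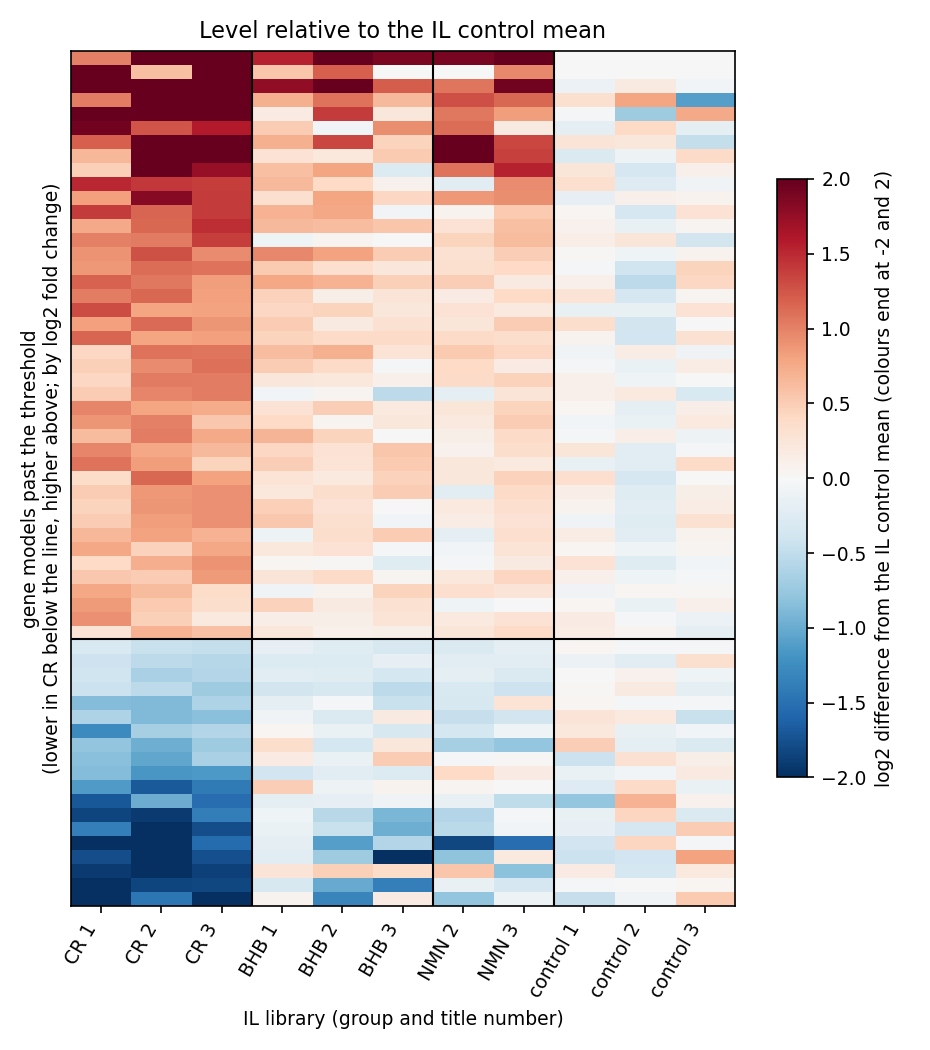
Log2 difference from the IL control mean in the 11 IL libraries (columns, by group and title number) for the 61 gene models past the threshold (lines, ordered by log2 fold change; 42 higher in CR above the black line, 19 lower below it). CR stands apart in colour by selection; the BHB and NMN columns are paler.

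The direct comparisons of CR with the bathed groups share the CR females with the lists above. Between CR and BHB no gene model passed (0 of 4965 in edgeR, 436 at an unadjusted p under 0.05; DESeq2 called 38). Naming required groups apart, an ID on 1 line and a mean log2 CPM not under 1, here and for NMN. Under these conditions the smallest p in each direction belonged to KZS20010 and KZS08796. KZS20010 had 68.2, 94.3 and 97.0 CPM in CR against 46.1, 49.9 and 33.3 CPM in BHB (log2 difference 1.01 ± 0.186 SE, edgeR adjusted p = 0.0705). KZS08796 had 62.0, 53.8 and 71.1 CPM in CR against 124, 101 and 158 CPM in BHB (-1.04 ± 0.195, edgeR adjusted p = 0.0705). Neither pair of groups overlapped, which was a condition of naming them. Lines of repeated IDs, which could not be named, had the same adjusted p in either direction. Between CR and NMN none passed either (0 in edgeR, 343 at an unadjusted p under 0.05; DESeq2 called 16). The smallest p there belonged to KZS08085, with 160, 122 and 118 CPM in CR against 366 and 258 CPM in NMN (-1.23 ± 0.202, edgeR adjusted p = 0.0555). In the other direction it was KZS20335, with 92.2, 73.3 and 65.3 CPM in CR against 47.9 and 51.3 CPM in NMN (0.63 ± 0.139, edgeR adjusted p = 0.263). The call counts moved between 0 and 4 for BHB and between 0 and 2 for NMN when 1 library was left out: 4 for BHB without IL CR replicate 1, 3 without IL control replicate 1 and 1 without either GB NMN library, and for NMN 2 without IL NMN replicate 2 and 1 without IL NMN replicate 3, IL CR replicate 1, IL control replicate 1, GB control replicate 1 or 3, or GB BHB replicate 2.

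The same 61 gene models were measured in the GB females, none of which entered the IL fold changes, although the GB libraries shared in the estimate of spread. The GB CR libraries carry the numbers 19, 20 and 17, all above the 1, 10 and 9 of the GB control libraries. Diet and library number therefore cannot be told apart in GB either. Of the 42 that rose in IL 36 were higher in GB CR than in GB control (85.7%, beside 50.3% of all tested), with a median log2 fold change of 0.51. Of the 19 that fell in IL 16 were lower in GB CR (84.2%, beside 49.0%), with a median of -0.35. In GB 51 gene models passed (1.03%), 21 higher (0.423%) and 30 lower (0.604%). Of them 8 were among the 61, 13.1% of the IL list and 15.7% of the GB list, all in the same direction, 7 higher and 1 lower in CR. The 1 that fell in both was KZS12501, with 1.53, 1.96 and 1.23 CPM in GB CR against 10.3, 6.73 and 9.07 CPM in GB control (log2 fold change -2.46 ± 0.403 SE, edgeR adjusted p = 0.00429). KZS13733 had 431, 243 and 777 CPM in GB CR against 92.2, 205 and 379 CPM in GB control, groups that overlapped (1.10 ± 0.659, edgeR adjusted p = 0.523).

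**Figure D5:**
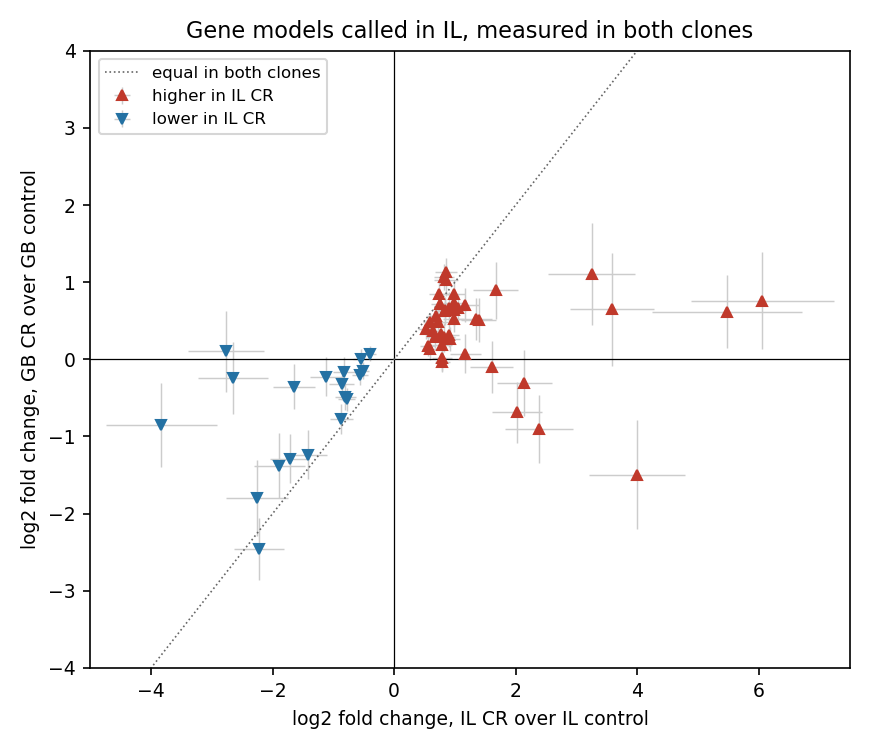
Log2 fold change of CR over control in IL (horizontal) and in GB (vertical) for the 61 gene models called in IL, with standard errors as grey bars. Points on the dotted line have equal changes in both clones; KZS05843, at 4.00 in IL and -1.50 in GB, is the lowest of the triangles that rose in IL.

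KZS05843, the named gene model with the largest rise in IL, lay on average lower in GB CR than in GB control, without passing. It had 533, 541 and 431 CPM in GB CR against 301, 2126 and 1817 CPM in GB control, with 1 control female below all CR females and 2 above them, and a log2 fold change of -1.50 ± 0.709 (edgeR adjusted p = 0.392). The IL effect minus the GB effect was 5.49 ± 1.05 on the log2 scale, which did not pass over all gene models (edgeR adjusted p = 0.125, unadjusted p = 0.000101). No gene model passed this test of a difference between the clones (0 of 4965 in edgeR, 411 at an unadjusted p under 0.05; DESeq2 called 26). The count was 4 without IL CR replicate 1 or GB control replicate 1, 3 without GB BHB replicate 2 or 3 and 1 without GB CR replicate 3. The smallest p belonged to KZR97438, with 15.6, 21.4 and 15.7 CPM in IL CR against 10.0, 8.97 and 13.1 CPM in IL control, and 10.7, 7.43 and 10.97 CPM in GB CR against 19.1, 25.1 and 29.1 CPM in GB control (difference of effects 2.05 ± 0.354, edgeR adjusted p = 0.100). In this gene model every IL CR female lay above every IL control female, and every GB CR female below every GB control female. In the other direction the smallest p, among gene models with an ID on 1 line and mean log2 CPM not under 1, belonged to KZS18936. Its difference of effects was -0.54 ± 0.136 (edgeR adjusted p = 0.312).

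None of the 10 gene models with the highest mean CPM over the 11 IL libraries was among the 61, beside 1.23% of all 4965 tested. At so small a share none would mostly be called among 10, so nothing is read from it. The ranking by mean CPM includes the CR libraries. In control alone, the called gene model ranked 7th among the falls averaged 10629 CPM, more than the 7854 CPM of the last of the 10. The 10 with the highest mean CPM in IL held 10.2, 13.1 and 16.2% of counts in the 3 CR females, against 20.3, 16.4 and 15.7% in the 3 control females, groups that overlapped. The difference of -4.27 percentage points had p = 0.2 in an exact permutation test (two-sided), where 0.1 is the smallest this design allows. It was -2.79 without CR replicate 1, one of the libraries that stood apart. In BHB they held 18.9, 17.05 and 15.8%, and in NMN 14.04 and 14.5%. Nearly all of the difference lay in the first of them, which took 0.631, 0.940 and 3.23% in CR against 8.32, 5.69 and 2.64% in control (two-sided exact permutation p = 0.2). CR replicate 3 was above control replicate 3 in it, and its log2 fold change of -1.84 ± 0.709 did not pass (edgeR adjusted p = 0.250). The other 9 together took 11.6 ± 1.77% in CR and 11.9 ± 1.16% in control (SD, n = 3 each; two-sided exact permutation p = 0.8).

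The spread among the 3 females was much the same on either ration. The median standard deviation of log2 CPM was 0.27 among the CR females and 0.29 among the control females, and it was larger in CR for 2344 of the 4965 gene models (47.2%). In 371 gene models (7.47% of all tested) the CR females differed among themselves by over 4-fold, and in 373 (7.51%) the control females did. These lists share 168 gene models. They are 45.3% of the CR list, beside 7.51% of all tested, and 45.0% of the control list, beside 7.47%. The shares of all tested are not matched for level. Thinly read gene models spread more, with a median standard error of the log2 fold change of 0.70 under 2 CPM and 0.13 between 100 and 1000 CPM. Whether the lists share more than gene models of their level would was not tested. For the 42 that rose the median standard deviation was 0.25 in CR and 0.21 in control, and for the 19 that fell 0.25 in CR and 0.34 in control.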

How the data were processed

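The deposited values are unnormalized counts of sense reads, per the labels. Per the labels' protocols, a Qiagen kit and a directional library kit were used, so antisense reads are kept apart. The submitters' processing notes name Trim Galore 0.4.5, FastQC, DESeq2 and STAR. Which program counted the reads, on which build and annotation, is not given in the sources used here. Groups follow the letters of the sample titles; the letter L is not explained in them and was taken as CR because the other letters match the other treatments. Nothing says which cohort, tube or rack a female came from, so p-values measure the spread between these females only. A chi-square check for duplicate libraries found none in the IL groups. Animals exposed to both chemicals are not analysed here.

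The table has 14657 lines with 9831 distinct IDs, of which 1546 are on more than 1 line; each line was kept as a gene model. The RefSeq gene table (GCF_020631705.1) held 0 of the IDs, so gene lists by name had no members and no sequence is shown. Low counts were removed by filterByExpr of edgeR (minimum count 10, minimum total 15), leaving 4965, scaled by TMM and tested with the robust quasi-likelihood F test of edgeR 4.0.16 (R 4.3.3) with 8 group means over 22 libraries, with p-values adjusted by Benjamini-Hochberg over all 4965. The biological coefficient of variation was 33.0%. A standard error is the size of the log2 fold change over the root of F; the prior count in log2 CPM was 2. IDs were printed for at most 2 gene models that rose and 2 that fell per comparison: the largest called changes, with mean log2 CPM not under 1, groups that do not overlap and an ID on 1 line, or, where none passed, the smallest p in each direction. For the test between the clones the groups were not required to be apart. Others are given by rank; those singled out by rank, by CPM or by a shared ID were chosen after their values were seen. The members, lists and choice of fit were made with earlier results of these data known, counts of the fits with and without the GB libraries included. The fit was tested on data simulated with its own estimates of spread, for IL CR against IL control. It recovered 22% of 50 better read gene models changed 1.5-fold, and 48, 94 and 92% of 50 each changed 2-, 4- and 8-fold. Of 129 calls there 1 was false. Changes of 2-fold or less were thus often missed. Alternatives used DESeq2 1.42.0 and sva 3.50.0.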

Additional observations from a re-analysis of the deposited data

How the results depend on the processing

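The count of 61 was 191 with DESeq2, 129 at an adjusted p of 0.1 and 132 with 1 surrogate variable (added after seeing the data). It was 4 with library number as a linear term and 0 in the 11 IL libraries alone, with or without a replicate block (682 and 622 at an unadjusted p under 0.05, edgeR), and in the compared groups alone (468). These last fits have fewer samples to estimate the spread. The other settings kept the count within 1.5 times: median-ratio factors 60, no low-count filter 41, 1 CPM in 3 libraries 67, lines of 1 ID summed 48, the 50 most abundant removed 60, thinning to 8503141 counts 53. Leaving out 1 library gave 0 to 69. Leaving out CR replicate 1 and control replicate 3, chosen after seeing the data, gave 48, and 49 with BHB replicate 3 left out as well. Deviations of IL CR and IL control libraries of equal title number correlated at -0.28, 0.06 and -0.45. No CR library correlated best with the control library of its own number. Those of IL control and IL BHB libraries of equal number correlated at 0.15, 0.38 and 0.54, and of IL CR and IL BHB libraries at -0.17, 0.26 and -0.49. No label says whether the title numbers pair the females, and these few values, set largely by the largest axis within the groups, cannot decide it. With the number as a replicate block over 22 libraries 46 were called, 34 of them among the 61. CR against BHB, 0 in the fit described, was 38 with DESeq2, 4 with no filter, 4 at an adjusted p of 0.1, 3 with the replicate block and 0 to 4 with 1 library left out. CR against NMN was 16 with DESeq2, 1 with no filter, at 0.1 or with lines summed, and 0 to 2 with 1 library left out. The difference between the clones was 26 with DESeq2, 3 with no filter, 1 with the replicate block and 0 to 4 with 1 library left out. The share of the 10 most abundant differed by -5.78 to -2.79 percentage points with 1 library left out. The log2 fold change was 2.80 to 4.43 for KZS05843, 2.90 to 3.73 for KZS13733, -2.61 to -1.95 for KZS12501 and -2.19 to -1.58 for KZS14794 over the 22 libraries left out, and 1.57, 2.08, -2.04 and -2.39 with library number as a term, where none of the 4 passed (adjusted p = 0.634, 0.530, 0.290 and 0.214). No value reversed. The cause of these changes was not tested. Depth limits the lowest gene models, where 1 read in a library decides a level.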

Other observations

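The axis that set CR replicate 1, BHB replicate 3 and control replicate 3 apart from their groups involved many reads. The 100 gene models with the highest loadings on it, a list chosen from these values and so given without a test, took 4.58 to 7.56% of counts in these 3 libraries and 0.359 to 1.89% in the other 6 libraries of the CR, BHB and control groups. The 100 with the lowest loadings took 0.318 to 1.01% in the 3 libraries and 1.70 to 2.93% in the other 6. Of the 200 gene models with the largest loadings in either direction, 1 was among the 61 called under CR (0.5%, beside 1.23% of all tested). Large loadings go with a large spread within groups, which makes a call harder to reach, so nothing is read from this share. All females were sampled within a day of laying eggs, per the deposited text, and no label separates these 3 libraries from the rest.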
